A study of Mus musculus with 6 samples.

Results

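The genes described here encode enzymes that break down the branched-chain amino acids leucine, isoleucine and valine, together with the kinase and the phosphatase that set the activity of the committed step. They were chosen by name, as the rows of the gene count table whose Ensembl ID maps to Bcat2, Bckdha, Bckdhb, Dbt, Bckdk, Ppm1k, Hibch, Pcca, Mccc1 or Mccc2. All 10 were found among 51911 counted genes, and all 10 passed the filter on low counts. Bulk RNA was sequenced from the gastrocnemius, a calf muscle, of male mice, in 3 libraries from carriers of an HSA-PGC-1a3 transgene and 3 from wild-type mice. PGC-1alpha3 is a splice form of PGC-1alpha, a coactivator of transcription, and HSA stands for the human skeletal actin promoter, which is active in skeletal muscle fibres. Strain, age, the number of founder lines and the number of animals behind a library are not given in the sources used here, so p-values measure the spread between these libraries. Counts summed over genes ranged from 25532146 to 40846872 a library, with a fragment that overlapped several genes counted for each.

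Muscle is a main site of the first step of this pathway, the transfer of the amino group to 2-oxoglutarate by the mitochondrial aminotransferase BCAT2. The resulting keto acids are then decarboxylated, irreversibly, by the branched-chain keto acid dehydrogenase complex, whose E1 component is a tetramer of alpha (BCKDHA) and beta (BCKDHB) subunits and whose E2 core is DBT. The kinase BCKDK phosphorylates the E1 alpha subunit and turns the complex off, and the phosphatase PPM1K turns it on again. Beyond this step the routes of the amino acids part: HIBCH acts on valine, the carboxylase of MCCC1 and MCCC2 on leucine, and propionyl-CoA carboxylase, of which PCCA is the alpha subunit, on the propionyl-CoA left by valine and isoleucine. Full-length PGC-1alpha is known to raise transcripts of this pathway in muscle.

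The transcripts did not move together. Bckdha was 1.72-fold higher in the transgenic libraries while Bckdhb, its partner in the same E1 enzyme, was 1.69-fold lower, and Pcca was 2.11-fold lower while its partner Pccb differed by less than the spread between libraries. Of the 10 genes 2 rose (Bckdha and Mccc1), 6 fell (Bckdhb, Dbt, Bckdk, Hibch, Pcca and Mccc2) and 2 did not pass (Bcat2 and Ppm1k), at an adjusted p of 0.05 in edgeR's quasi-likelihood test with Benjamini-Hochberg adjustment over all 16593 genes tested. The same test called 50.7% of all genes, 25.5% as higher and 25.2% as lower, so a call by itself is common in this comparison. The CPM values (fragments per 1e6 of the TMM-scaled library) of 8 of the 10 did not overlap between genotypes, against 59.6% of all genes tested. The median log2 fold change was -0.25 over the 10 genes and -0.016 over all genes. In bulk tissue, fewer cells of a type and less RNA per cell cannot be told apart.

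The scaling between libraries decided the direction of the small changes. TMM factors were 1.15 in each transgenic library and 0.851 to 0.885 in the wild-type libraries, and dropping them shifted the median gene from a log2 fold change of -0.016 to 0.38. With library totals alone 5 of the 10 passed as higher and 2 as lower, where 52.3% and 8.73% of all genes did. Bckdha and Mccc1 were higher, and Bckdhb and Pcca lower, under both scalings. The values of Bcat2, Dbt, Bckdk, Ppm1k, Hibch and Mccc2 changed sign, so these 6 are described relative to TMM scaling. Each of them lay below the median of all genes under either. The change of scaling moves all genes by nearly the same amount, so the second scaling is no separate check of this.

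**Figure D1:**
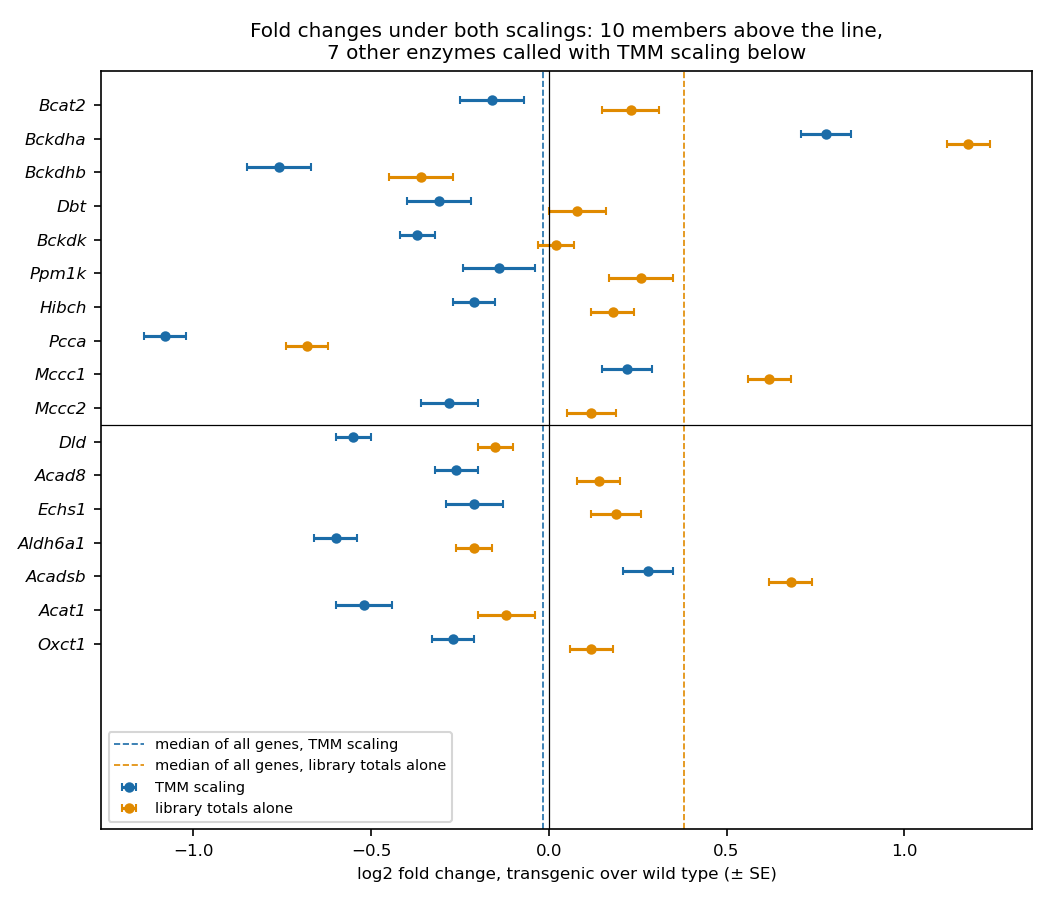
Log2 fold change, transgenic over wild type, with its SE (x axis) for the 10 genes (above the line) and the 7 of the other enzymes of the pathway that passed the test with TMM scaling (below), with TMM scaling (blue) and library totals alone (orange); dashed lines mark the median of all genes, -0.016 and 0.38. Bckdha and Mccc1 lie above 0 and Bckdhb and Pcca below 0 in both colours.

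The pairs that parted are shown first through the sequence around their annotated transcription starts, so that the partners can be compared; whether these promoters bear on the difference was not tested. The windows run from 250 bases before to 50 after the start, from RefSeq on GRCm38.p6, read along the gene's strand. Capitals mark GC boxes, the letters GGGCGG on either strand, the core that Sp1-type factors recognise.
Bckdha, chr7:25658712-25659011, minus strand: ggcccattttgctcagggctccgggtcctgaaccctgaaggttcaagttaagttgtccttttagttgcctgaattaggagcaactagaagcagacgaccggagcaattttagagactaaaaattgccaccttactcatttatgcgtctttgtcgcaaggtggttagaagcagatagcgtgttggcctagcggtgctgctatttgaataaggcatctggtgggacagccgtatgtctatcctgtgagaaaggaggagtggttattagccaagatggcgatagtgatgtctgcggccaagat
Bckdhb, chr9:83924887-83925186, plus strand: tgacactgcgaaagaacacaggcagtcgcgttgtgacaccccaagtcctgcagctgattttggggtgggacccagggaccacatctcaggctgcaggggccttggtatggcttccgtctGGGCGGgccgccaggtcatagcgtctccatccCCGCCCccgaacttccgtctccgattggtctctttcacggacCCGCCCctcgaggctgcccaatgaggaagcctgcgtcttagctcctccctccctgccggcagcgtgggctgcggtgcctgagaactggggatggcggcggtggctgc
Pcca, chr14:122534078-122534377, plus strand: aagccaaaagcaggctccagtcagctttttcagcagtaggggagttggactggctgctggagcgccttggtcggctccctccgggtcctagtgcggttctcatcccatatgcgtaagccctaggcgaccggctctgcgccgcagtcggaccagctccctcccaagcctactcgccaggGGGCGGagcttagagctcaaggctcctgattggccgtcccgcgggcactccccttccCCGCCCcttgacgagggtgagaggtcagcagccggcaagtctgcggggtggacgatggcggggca
Pccb, chr9:101034835-101035134, minus strand: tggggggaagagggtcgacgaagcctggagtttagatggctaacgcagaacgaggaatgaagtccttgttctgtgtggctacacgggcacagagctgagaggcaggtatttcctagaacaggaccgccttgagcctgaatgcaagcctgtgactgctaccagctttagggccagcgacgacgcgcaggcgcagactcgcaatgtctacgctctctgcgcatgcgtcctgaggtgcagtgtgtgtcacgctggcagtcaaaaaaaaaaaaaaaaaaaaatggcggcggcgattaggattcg

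The Bckdhb window held 3 GC boxes and the Pcca window 2, while the Bckdha and Pccb windows held 0. The GC content was 65% for Bckdhb and 65.7% for Pcca, against 48% for Bckdha and 54.3% for Pccb. Windows were on hand for 9 of the 10 genes (not for Dbt), and 5 of the 9 held a GC box, against 35.7% of 32851 windows of the same length. Mccc1 and Ppm1k, with 1 and 2 GC boxes, and Hibch, with 6 that partly overlap each other, were the others. Of these Mccc1 rose, while Bckdk and Mccc2, which fell, held 0, as did Bcat2. The letters AAGGTCA, the half-site of the oestrogen-related receptors with which PGC-1alpha works, were in 0 of the 9 windows and in 4.72% of all windows. The E-box CACGTG was in 1 of the 9 (Mccc2; 7.15% of all windows), and the ETS letters CCGGAAG in 0 (8.86%). Each motif was searched on both strands, and a match or its absence in these windows says nothing on binding.

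Bcat2 (chromosome 7, 45570153 to 45589711, plus strand, GRCm38), the mitochondrial aminotransferase of the first step, stood at 55.9, 59.6 and 58.9 CPM in transgenic replicates 1, 2 and 3, against 58.9, 74.9 and 61.4 CPM in wild-type replicates 1, 2 and 3. The genotypes overlapped, with wild-type replicate 2 above the other 5 libraries. Of the exonic bases of Bcat2, 622 (15.9%) also lie in 0610005C13Rik on the other strand, which had 4.12% to 6.60% as many counts. The log2 fold change of Bcat2 was -0.16 (SE 0.09, edgeR adjusted p = 0.135), which did not pass. Without wild-type replicate 1 it did, at -0.24 (adjusted p = 0.0461), and with library totals alone it passed as higher, at 0.23 (adjusted p = 0.0197). Bcat1, which encodes the cytosolic aminotransferase, was close to silent, with 7 to 18 counts a library and a log2 difference of 0.18 (SE 0.38, adjusted p = 0.728).

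Bckdha (ENSMUSG00000060376, chromosome 7, 25629946 to 25658981, minus strand, GRCm38), which encodes the E1 alpha subunit, had 233, 257 and 251 CPM in the transgenic libraries against 133, 153 and 146 CPM in the wild-type libraries. Every transgenic library lay above every wild-type library. The means were 247 ± 13 and 144 ± 10.3 CPM (SD, n = 3 each), and the log2 fold change was 0.78 (SE 0.07, edgeR adjusted p = 3.55e-06). Under 15 alternatives the value ran from 0.72 to 1.18 and passed each time. Of its exonic bases 1171 (61.7%) also lie in exons of B3gnt8, a glycosyltransferase gene on the opposite strand. Fragments were counted without strand and for every gene they touch, so reads of these genes cannot be told apart there. B3gnt8 was credited with 72.0% to 72.9% as many counts as Bckdha in all 6 libraries. After all B3gnt8 counts were taken away from Bckdha, which removes every fragment the genes could share, the log2 fold change was 0.79 (SE 0.07, adjusted p = 6.44e-06), a check chosen after seeing the data.

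Bckdhb (ENSMUSG00000032263, chromosome 9, 83925145 to 84124240, plus strand), which encodes the E1 beta subunit, had 14.7, 14.2 and 14.4 CPM in the transgenic libraries against 21.1, 27.1 and 25.1 CPM in the wild-type libraries. The genotypes did not overlap, and the transgenic libraries lay close together while the wild-type libraries spread. The means were 14.5 ± 0.255 and 24.4 ± 3.05 CPM (SD, n = 3 each), and the log2 fold change -0.76 (SE 0.09, edgeR adjusted p = 5.27e-05). It stayed lower and called under all 14 alternatives, from -0.86 to -0.36.

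Dbt (chromosome 3, 116513070 to 116549981, plus strand), which encodes the E2 core that carries the lipoyl arm, had 29.6, 32.8 and 30.2 CPM in the transgenic libraries against 38.5, 42.7 and 33.6 CPM in wild type. Wild-type replicate 3 came within 1 CPM of transgenic replicate 2, without overlap. The log2 fold change was -0.31 (SE 0.09, edgeR adjusted p = 0.0110), and 0.08 (adjusted p = 0.402) with library totals alone. Dld, the E3 component shared with the pyruvate and 2-oxoglutarate dehydrogenases, was lower under both scalings, at -0.55 (SE 0.05, adjusted p = 7.56e-06) and -0.15 (adjusted p = 0.0180).

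Bckdk (chromosome 7, 127904082 to 127910221, plus strand), the kinase that turns the complex off, was the most even of the 10 across libraries of 1 genotype, at 135, 139 and 138 CPM in the transgenic libraries against 177, 179 and 178 CPM in wild type. The gap between genotypes was far wider than the spread within either. The log2 fold change was -0.37 (SE 0.05, edgeR adjusted p = 8.28e-05), and 0.02 (adjusted p = 0.663) with library totals alone. Ppm1k (chromosome 6, 57506502 to 57535468, minus strand), the phosphatase that turns the complex on, had 19.0, 22.7 and 18.9 CPM in transgenic muscle and 21.5, 24.5 and 20.2 CPM in wild type. These overlapped, and replicate 2 was the highest in both genotypes. The log2 fold change of -0.14 (SE 0.10, adjusted p = 0.266) did not pass, and it was 0.26 (adjusted p = 0.0293), called as higher, with library totals alone.

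**Figure D2:**
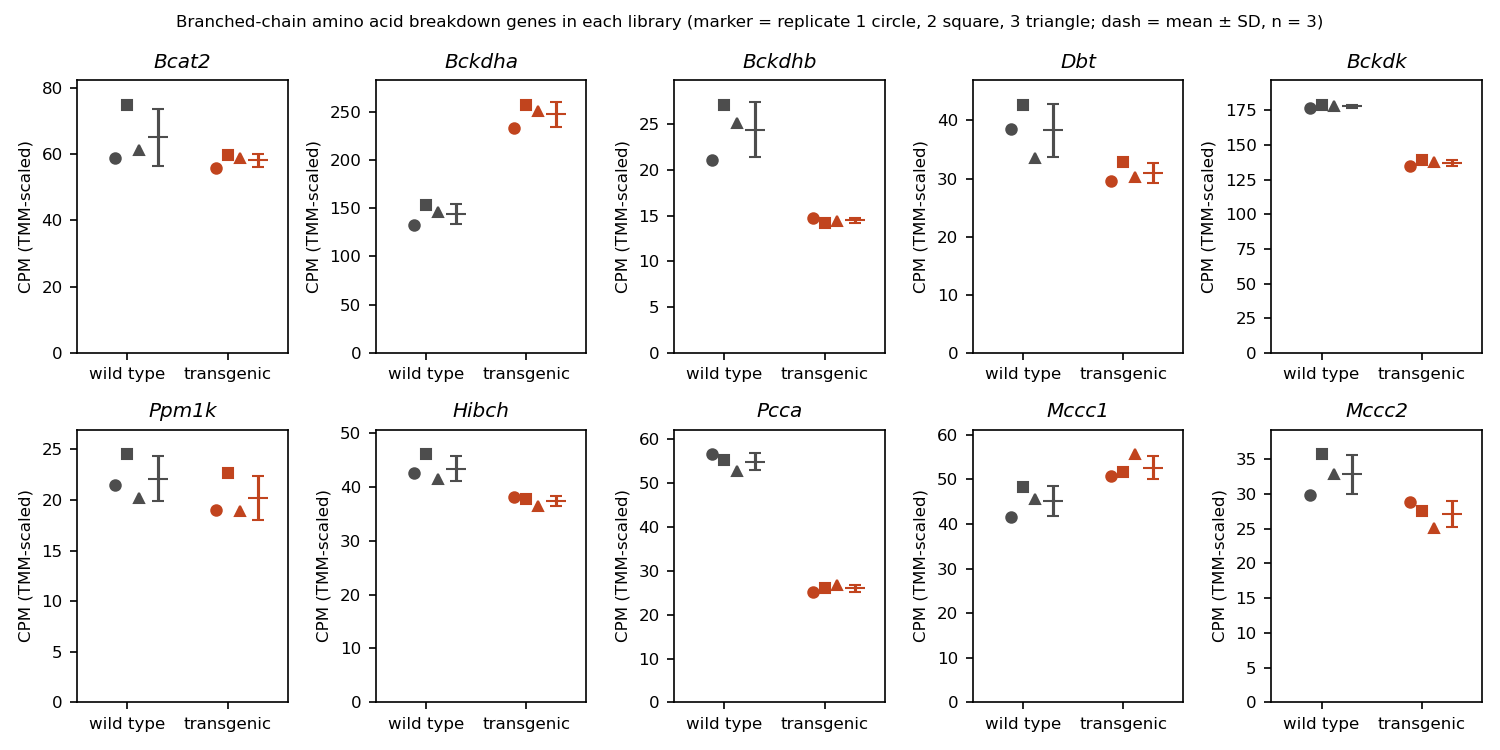
CPM with TMM scaling (y axis, from 0) of each of the 10 genes in the 3 wild-type (grey) and 3 transgenic (red) libraries; marker shape gives the replicate number and the dash with bars the mean ± SD. Bckdha and Mccc1 sit higher in every transgenic library, Bckdhb, Dbt, Bckdk, Hibch, Pcca and Mccc2 lower, and Bcat2 and Ppm1k overlap.

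Hibch (chromosome 1, 52844929 to 52920986, plus strand), the hydrolase that frees 3-hydroxyisobutyrate from coenzyme A on the valine route, had 38.1, 37.7 and 36.4 CPM in transgenic muscle and 42.5, 46.0 and 41.5 CPM in wild type. All 3 transgenic libraries were below the wild-type ones, by a small margin. The log2 fold change was -0.21 (SE 0.06, edgeR adjusted p = 0.0136), the call ended without a filter on low counts (-0.18, adjusted p = 0.0819), and with library totals alone it was 0.18 and called as higher (adjusted p = 0.0146).

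Mccc1 and Mccc2 encode the alpha and beta subunits of 3-methylcrotonyl-CoA carboxylase on the leucine route, and their transcripts went opposite ways. Mccc1 (chromosome 3, 35959312 to 36000678, minus strand), whose product carries the biotin, had 50.7, 51.6 and 55.6 CPM in transgenic muscle and 41.5, 48.3 and 45.5 CPM in wild type, which gave a difference of 0.22 on the log2 scale (SE 0.07, edgeR adjusted p = 0.0199). Mccc2 (chromosome 13, 99948530 to 100015639, minus strand) had 28.8, 27.6 and 25.1 CPM in transgenic muscle and 29.9, 35.7 and 32.9 CPM in wild type, which gave -0.28 on the log2 scale (SE 0.08, edgeR adjusted p = 0.0143). Neither gene overlapped between genotypes, yet both changes were small and their calls depended on single libraries. The Mccc1 call ended without wild-type replicate 1 (0.16, adjusted p = 0.0879) or wild-type replicate 3 (0.22, adjusted p = 0.0566). The Mccc2 call ended without transgenic replicate 3 (-0.21, adjusted p = 0.0537) or wild-type replicate 2 (-0.22, adjusted p = 0.0531), and with library totals alone the value was 0.12 (adjusted p = 0.196). Mccc1 shares 94, 321 and 198 exonic bases with Gm15952, B230207O21Rik and Mccc1os on the other strand, and each of these had at most 7.46% as many counts. Their log2 fold changes were above that of Mccc1, at 0.49 (edgeR adjusted p = 0.0198), 0.37 (adjusted p = 0.197) and 0.43 (adjusted p = 0.0573). The part of shared fragments in the small rise of Mccc1 was not tested.

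Pcca (ENSMUSG00000041650, chromosome 14, 122534324 to 122891100, plus strand) encodes the biotin-bearing alpha subunit of propionyl-CoA carboxylase. With TMM scaling its log2 fold change was the largest in size of the 10, and with library totals alone that of Bckdha was (1.18, against -0.68 for Pcca). It had 25.2, 26.1 and 26.8 CPM in the transgenic libraries against 56.5, 55.3 and 52.8 CPM in the wild-type libraries, with the genotypes far apart. The means were 26.0 ± 0.810 and 54.8 ± 1.90 CPM (SD, n = 3 each), and the log2 fold change was -1.08 (SE 0.06, edgeR adjusted p = 1.88e-07), and all 14 alternatives kept the call, from -1.11 to -0.68. It shares 241 exonic bases (4.63%) with Ggact on the other strand. Ggact had 26.7% to 30.9% as many counts as Pcca in the transgenic libraries and 18.6% to 20.4% in wild type, and it also fell (-0.54, adjusted p = 0.00121). Pccb, which encodes the beta subunit of the same enzyme, had 106, 98.6 and 110 CPM in transgenic muscle and 101, 112 and 105 CPM in wild type. These overlapped, and the log2 fold change was -0.02 (SE 0.06, adjusted p = 0.832), or 0.38 (adjusted p = 0.000141) with library totals alone, the size of the shift of the median gene.

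A ratio of 2 genes taken within a library does not depend on the scaling between libraries, so the balance of partners was compared as well. With 3 libraries against 3, the two-sided exact permutation test cannot give a p below 0.1. Of the 10 ratios 9 reached that floor (Benjamini-Hochberg adjusted p = 0.111), with no overlap between genotypes. Of single genes tested 59.6% did not overlap, and no such share was taken over ratios of other genes. Further, 7 of the 10 share Bckdha as denominator and so are not independent. Bckdha itself did not overlap between genotypes, so a ratio to it can separate where the numerator did not pass, as for Bcat2 and Ppm1k. The ratio of Bckdhb to Bckdha counts was 0.0634, 0.0553 and 0.0574 in the transgenic libraries against 0.159, 0.177 and 0.172 in wild type, 2.89-fold lower in the transgenic muscle. The ratio of Dbt to Bckdha was 0.127, 0.128 and 0.12 against 0.290, 0.279 and 0.230, which is 2.12-fold lower. Both ratios were lower in each transgenic library than in any wild-type library.

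The kinase and the phosphatase were also lower against the subunit they act on, whose own transcript rose, while that of the phosphatase did not pass. The Bckdk to Bckdha ratio was 0.582, 0.540 and 0.550 in the transgenic libraries against 1.33, 1.17 and 1.22 in the wild-type libraries, 2.22-fold lower, and the Ppm1k to Bckdha ratio was 1.88-fold lower. Between themselves kinase and phosphatase overlapped, with a Bckdk to Ppm1k ratio of 7.12, 6.13 and 7.31 against 8.20, 7.30 and 8.77 (exact permutation p = 0.2, adjusted p = 0.2, n = 3 each; log2 difference -0.24). The Pcca to Pccb ratio was 0.238, 0.265 and 0.244 against 0.558, 0.494 and 0.504, 2.08-fold lower. The Mccc1 to Mccc2 ratio was 1.76, 1.87 and 2.21 against 1.39, 1.35 and 1.38, 1.41-fold higher. Against Bckdha, the log2 ratio was lower by similar amounts for Bcat2 (-0.94) and Hibch (-0.99) and by less for Mccc1 (-0.56). Taking B3gnt8 counts away from Bckdha moved the log2 ratio of Bckdhb to Bckdha from -1.53 to -1.54.

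**Figure D3:**
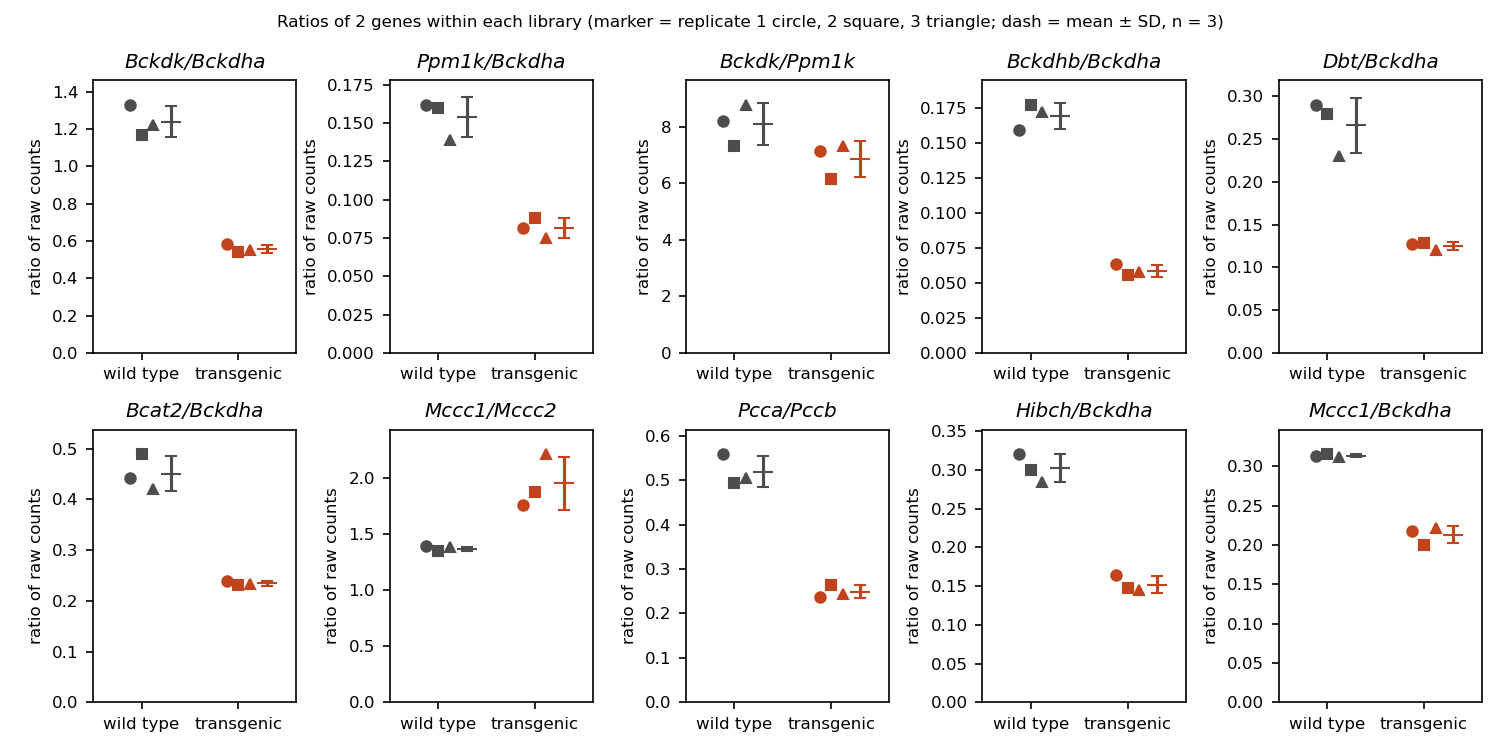
Ratio of the raw counts of 2 genes within each library (y axis, from 0), in wild type (grey) and transgenic (red), with mean ± SD (n = 3). The genotypes are apart in every panel but Bckdk/Ppm1k, and the ratio rises in the transgenic libraries in the Mccc1/Mccc2 panel alone.

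Levels were compared between genes per kilobase of exon, as TPM, a length-scaled share of the library, with lengths from the union of annotated exons. Bckdha was the highest of the 10, at 160 to 180 TPM in wild-type and 348 to 386 TPM in transgenic libraries, counted with the fragments it shares with B3gnt8. Bckdk followed, at 108 to 111 and 104 to 107 TPM, and then Bcat2, at 34.5 to 42.9 and 40.7 to 43.5 TPM. In wild-type muscle Bckdhb, Mccc2, Dbt and Pcca came next, and each overlapped its neighbour in that order except that Pcca, at 23.3 to 24.7 TPM, lay above Hibch, at 15.8 to 17.0 TPM. Mccc1 and Ppm1k were the lowest, at 8.65 to 9.84 and 7.74 to 9.09 TPM, and overlapped each other. In transgenic muscle Mccc2 and Dbt overlapped next after Bcat2, Bckdhb (22.4 to 23.2 TPM) was below both, and Pcca (13.7 to 14.4 TPM) dropped below Hibch to the level of Mccc1 (13.1 to 14.2 TPM). The order of the genes depends on these lengths, and a union of exons can exceed the transcript that a muscle makes. It was 10952 bases for Mccc1 against 2802 for Mccc2. Without division by length, Mccc1 stood above Mccc2 in wild type (45.1 against 32.8 CPM) and above Pcca in transgenic muscle (52.6 against 26.0 CPM). TPM sums to a fixed total in each library and so shares the scaling limit given above.

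**Figure D4:**
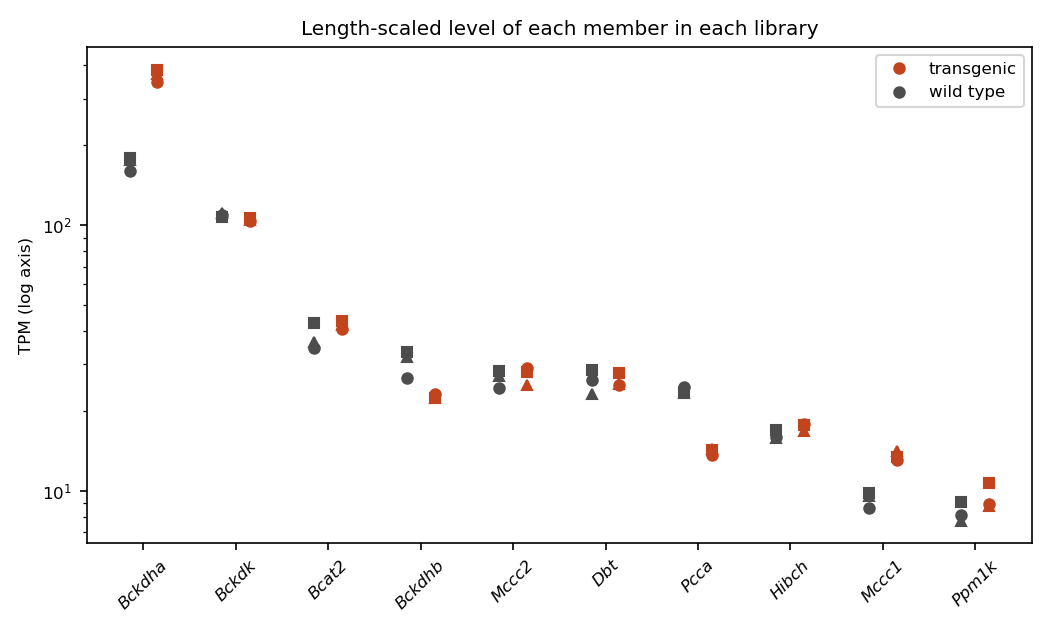
TPM (log axis) of each of the 10 genes in the wild-type (grey) and transgenic (red) libraries, in the order of the wild-type mean. Bckdha is above 100 TPM in all libraries, and Pcca drops to the TPM of Mccc1 in the transgenic ones. The order depends on the exon lengths used.

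Of the other 16 enzymes of the pathway 1 rose and 6 fell, where 25.5% of all genes rose and 25.2% fell. Acadsb, which opens the isoleucine route, rose by 0.28 (SE 0.07, edgeR adjusted p = 0.00528) on the log2 scale, and Dld, Aldh6a1, Acat1, Oxct1, Acad8 and Echs1 fell. Aldh6a1, the methylmalonate semialdehyde dehydrogenase at the end of the valine route, had 144, 141 and 143 CPM in transgenic muscle and 208, 234 and 208 CPM in wild type (-0.60, SE 0.06, adjusted p = 9.85e-06); 1078 of its exonic bases (18.6%) lie in Bbof1 on the other strand, which had 14.0% to 16.3% as many counts. Aldh6a1 was lower under both scalings. Acat1, the thiolase of the isoleucine route, was at -0.52 (SE 0.08, adjusted p = 0.000479), a call that ended with library totals alone (-0.12, adjusted p = 0.21). Oxct1, which uses the ketone bodies that leucine yields, was at -0.27 (SE 0.06, adjusted p = 0.00407). It shares 467 exonic bases (12.6%) with BC037032 on the other strand, which had 5.99% to 7.17% as many counts. Acad8, the isobutyryl-CoA dehydrogenase of the valine route, was at -0.26 (SE 0.06, adjusted p = 0.00363). The hydratase gene Echs1 was at the threshold (-0.21, SE 0.08, adjusted p = 0.0495), and its call ended when any library but wild-type replicate 1 was left out (-0.24 to -0.11, adjusted p up to 0.161). The call also ended with limma-voom (adjusted p = 0.0651), without robust estimation in edgeR (0.0603) and with a filter of at least 1 CPM in 3 libraries (0.0519). With library totals alone Echs1 was called higher (0.19, edgeR adjusted p = 0.0353).

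The other 9 did not pass under TMM scaling. They included, on the leucine route, Ivd, the isovaleryl-CoA dehydrogenase (-0.14, SE 0.09), and Auh, the methylglutaconyl-CoA hydratase (-0.11, SE 0.05). On the valine and isoleucine routes they included Hibadh (0.02, SE 0.05), Hsd17b10 (0.04, SE 0.07), Pccb, and Mcee (-0.19, SE 0.08) and Mmut (-0.05, SE 0.06), which turn the product of propionyl-CoA carboxylase into succinyl-CoA. Bcat1, described above, was among them. The medians were -0.12 for this list and -0.016 for all genes. With library totals alone 10 of the 16 were called higher and 2 lower.

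Carrier and cofactor genes were called in both directions, where 25.5% of all genes were called higher and 25.2% lower. Of 6 amino acid carriers 3 fell and 1 rose: Slc7a8, the LAT2 exchanger, had 4.73, 5.83 and 4.13 CPM in the transgenic against 14.3, 12.2 and 11.5 CPM in the wild-type libraries (log2 fold change -1.38, SE 0.14, edgeR adjusted p = 1.26e-05). Slc43a1, the LAT3 uniporter, was at -1.15 (SE 0.09, adjusted p = 1.75e-06) and Slc7a5, the LAT1 exchanger, at 2.01 ± 0.634 against 3.27 ± 0.271 CPM (SD, n = 3; adjusted p = 0.0199 in edgeR). The Slc7a5 call ended with library totals alone (-0.31, adjusted p = 0.261) and without transgenic replicate 2 (-0.52, adjusted p = 0.082), transgenic replicate 3 (-0.60, adjusted p = 0.0725), wild-type replicate 1 (-0.68, adjusted p = 0.0542) or wild-type replicate 3 (-0.66, adjusted p = 0.0592). Slc25a44, the carrier that brings branched-chain amino acids into mitochondria, was at 0.18 (SE 0.06, adjusted p = 0.0359), and this call ended in 5 of the 6 settings that leave out a library, with DESeq2 and with the replicate block. Of 14 genes for the cofactors biotin, cobalamin, lipoate and thiamine 5 rose and 3 fell, where library totals alone gave 12 higher and 1 lower, and 2 higher and 2 lower among the carriers. Hlcs, the ligase that attaches biotin to PCCA and MCCC1, fell by 0.76 on the log2 scale (SE 0.10, adjusted p = 8.63e-05), with 11.8 ± 1.36 against 19.9 ± 1.63 CPM (SD, n = 3). Abcd4 (0.84, SE 0.09, adjusted p = 2.07e-05) and Mmab (0.54, SE 0.06, adjusted p = 3.32e-05), which serve cobalamin, rose.

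Among 7 regulators 4 fell and 1 rose, or 2 and 3 with library totals alone. Of all genes 25.2% fell and 25.5% rose with TMM scaling. The regulator that rose was Ppargc1a, the gene of the transgene, at 3100, 2450 and 3240 CPM in the transgenic libraries against 51.1, 52.1 and 53.5 CPM, so each label matched its library. These counts do not separate transgene from endogenous gene. Klf15, a transcription factor known to raise amino acid breakdown genes, had 18.3, 26.3 and 19.9 CPM in the transgenic against 31.8, 43.2 and 32.1 CPM in the wild-type libraries (log2 fold change -0.74, SE 0.18, edgeR adjusted p = 0.0119). It did not pass with library totals alone (-0.34, adjusted p = 0.115) or without transgenic replicate 3 (-0.67, adjusted p = 0.0511). Esrra (-0.69, SE 0.08, adjusted p = 2.95e-05) and Rxra (-0.88, SE 0.05, adjusted p = 2.84e-07) fell under both scalings, and Ppard (-0.39, SE 0.07, adjusted p = 0.00068) under TMM scaling.

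The sister complexes give the nearest comparison. Of 14 genes of the pyruvate, 2-oxoglutarate and 2-oxoadipate dehydrogenases with their kinases and phosphatases, 8 fell and 1 rose (median -0.26), and in the tricarboxylic acid cycle 12 of 14 fell and none passed as higher (median -0.44). With library totals alone 6 rose and 3 fell among the former, and 3 rose and 4 fell among the latter. Of all genes 25.2% fell and 25.5% rose with TMM scaling. Pdha1, the pyruvate dehydrogenase E1 alpha gene, was at -0.70 (SE 0.06, edgeR adjusted p = 3.40e-06), where its counterpart Bckdha was at 0.78. Pdha1 shares 603 exonic bases (16.1%) with Map3k15 on the other strand, and the part of shared fragments was not tested. Pdhb, the E1 beta gene, was at -0.35 (SE 0.05, adjusted p = 0.000153), or 0.05 (adjusted p = 0.411) with library totals alone; it was named as the counterpart of Bckdhb after its value was seen. Dlst, an E2 gene, was at -0.70 (SE 0.05, adjusted p = 1.75e-06). Of the kinases Pdk2 fell (-0.66, SE 0.06, adjusted p = 7.00e-06), and Pdk3 rose from 1.20 ± 0.539 to 7.5 ± 0.839 CPM (SD, n = 3; adjusted p = 1.88e-05 in edgeR). Pdk4, far more abundant, had 577 ± 194 CPM in wild-type and 925 ± 414 CPM in transgenic libraries and did not pass (0.68, SE 0.51, adjusted p = 0.334). Nor did Pdk1 (0.08, SE 0.06, adjusted p = 0.249). In the citrate cycle Idh3a (-0.75, SE 0.06), Sdhc (-0.67, SE 0.06) and Mdh2 (-0.56, SE 0.07) were among the genes that fell. The differences between these lists and the 10 genes were not tested.

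**Figure D5:**
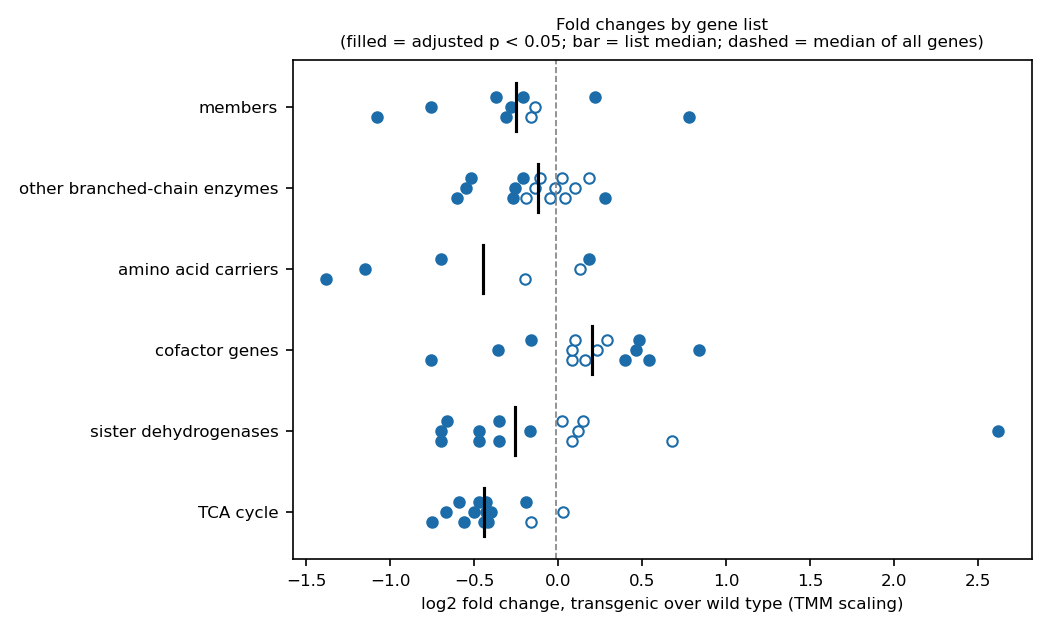
Log2 fold change with TMM scaling (x axis) of each gene in 6 lists (rows); filled points passed an adjusted p of 0.05, bars mark list medians and the dashed line the median of all genes, -0.016. The 10 branched-chain genes lie on both sides of 0, while 13 of 14 tricarboxylic acid cycle genes lie below it.

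The libraries held the markers of skeletal muscle, with a summed level of 66900 to 71800 CPM for 8 markers in transgenic and 153000 to 163000 CPM in wild-type libraries, and 7 of the 8 fell. The sums for other cell types are given here with the calls, where 25.2% of all genes fell and 25.5% rose. The part of any of these markers in the results above was not tested. The summed level of 7 adipocyte markers was 142 to 178 CPM in transgenic and 186 to 368 CPM in wild-type libraries, highest in wild-type replicate 1 (1 fell, 0 rose). The marker that fell, Fabp4, was the largest part of these sums, at 124 to 138 and 170 to 213 CPM. The other 6 overlapped between genotypes and did not pass. All 6 were highest in wild-type replicate 1, by a wide margin. Adipoq had 23.2 CPM there, against 3.05 and 2.23 CPM in wild-type replicates 2 and 3 and 1.80 to 7.33 CPM in the transgenic libraries. Plin1 had 21.3 CPM there, against 2.39 and 2.18 CPM in wild-type replicates 2 and 3 and 1.17 to 7.23 CPM in the transgenic libraries. Without wild-type replicate 1, 8 of the 10 genes stayed on their side of the threshold. Mccc1 no longer passed there (0.16, edgeR adjusted p = 0.0879), and Bcat2 passed as lower (-0.24, adjusted p = 0.0461). For 6 endothelial markers the sums were 315 to 335 and 395 to 423 CPM (6 fell, 0 with library totals alone), for 6 fibroblast markers 1170 to 1410 and 1410 to 1680 CPM (2 fell, where library totals alone gave 2 higher), for 6 macrophage markers 78.3 to 90.0 and 59.3 to 93.9 CPM (1 rose), and for 5 Schwann cell markers 68.0 to 262 and 104 to 212 CPM (0 passed).

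The authors' deposited table, limited to genes of low p and a log2 fold change of at least 0.585 in size, held 3 of the 10 genes, where 20.2% of the genes tested here are listed. In the authors' deposited table the log2 fold changes were 0.75 for Bckdha, -0.737 for Bckdhb and -1.098 for Pcca. These are the 3 of the 10 that changed at least 1.5-fold here, a size reached with a call by 24.0% of all genes tested.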

How the data were processed

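Bulk RNA was measured in 3 transgenic and 3 wild-type libraries of gastrocnemius muscle, extracted with Trizol from frozen, pulverised tissue, per the labels' protocols. The submitters' processing notes name STAR 2.5.0a, featureCounts 2.0.0, DESeq2 and GRCm38.p6. The counting command, per the file headers, ignored strand and credited a fragment to every gene it overlapped. The deposited table holds raw counts, not normalized. The authors' deposited table of DESeq2 results gives log2 fold changes with raw p-values and adjusted ones.

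Symbols, positions and exon lengths came from GENCODE on GRCm38, which holds 51718 of the 51911 gene IDs. Genes that passed filterByExpr were scaled with TMM and tested in R 4.3.3 with edgeR 4.0.16 (quasi-likelihood, robust, genotype as the sole term, Benjamini-Hochberg over 16593 genes, threshold 0.05). Fold changes are transgenic over wild type, and SE is the absolute log2 fold change over the square root of F. A count of 3 equals 0.0804 to 0.134 CPM. Ratios used counts plus 0.5. Alternatives used DESeq2 1.42.0 and limma 3.58.1, among others below. The fit was tested on simulated data. No library was a copy of another (chi-square over its degrees of freedom 10.5 to 26.0 between libraries of 1 genotype). The genes named were the 10, the 16 other enzymes, up to 4 called genes of smallest p in each further list, and Klf15, Slc25a44, Ppargc1a and Esrra, plus Pdhb; a few genes that this rule names are not reported here. The 10 genes and the lists were chosen with earlier results of these data known.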

Additional observations from a re-analysis of the deposited data

How the results depend on the processing

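Bckdha, Bckdhb and Pcca kept direction and call under all alternatives run: library totals, upper-quartile factors, DESeq2, limma-voom, no robust estimation, both other filters, the replicate block and each library left out. All 87 alternative values of the 10 ratios kept their direction. With library totals alone, all genes gave 8676 higher and 1448 lower calls, the 10 genes 5 and 2, the other enzymes 10 and 2, and the cofactor genes 12 and 1; 2 carriers were called higher. There the regulators gave 3 and 2, the sister dehydrogenases 6 and 3, and the citrate cycle 3 and 4. That scaling turned Bcat2 to 0.23, Dbt to 0.08, Bckdk to 0.02, Ppm1k to 0.26, Hibch to 0.18, Mccc2 to 0.12, Ivd to 0.26, Auh to 0.29, Acad8 to 0.14, Echs1 to 0.19, Pccb to 0.38, Mcee to 0.21, Mmut to 0.34, Oxct1 to 0.12 and Ppard to 0.01 on the log2 scale, by raising the median gene as given above. There Acat1 (-0.12), Slc7a5 (-0.31) and Klf15 (-0.34) kept their sign and no longer passed. Pccb, close to 0, was 0.02 without a filter, and with single libraries left out Pccb ran from -0.06 to 0.05, Hibadh from -0.01 to 0.04 and Hsd17b10 from -0.02 to 0.09. With DESeq2, 0 carriers were called higher.

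Leaving out each library gave 3678 to 4121 genes higher and 3581 to 3931 lower, 1 to 2 of the 10 genes higher and 5 to 7 lower, 0 to 1 carriers higher and 1 to 2 regulators higher. Between libraries of the 2 genotypes that share replicate number 1, 2 or 3, deviations from the group means correlated at 0.101, -0.0884 and -0.210. Between libraries of different numbers they correlated at -0.191 to 0.246. These weak values over all genes show no pairing by number, but they cannot exclude one. The replicate block gave 4165 genes higher and 4166 lower, with 2 and 6 of the 10 genes, 0 carriers higher and 2 sister dehydrogenases higher, and Bckdha at 0.78, Bckdhb at -0.75 and Pcca at -1.08. For the ratios, paired sign flips cannot give an exact permutation p below 0.25. The cause was not tested. Depth limits Bcat1 most, with 7 to 18 counts a library.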

Other observations

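Genes outside the lists with a profile most like that of Pcca, by the smallest root-mean-square difference of centred log2 CPM over the 6 libraries, were Cyp27a1 (0.0193), Golph3 (0.0213) and Gapdh (0.0397). Cyp27a1, a mitochondrial sterol hydroxylase gene, had 37.6, 38.4 and 38.8 CPM in the transgenic and 82.6, 82.0 and 79.7 CPM in the wild-type libraries. Golph3, a Golgi phosphoprotein gene, had 49.8, 53.2 and 52.2 CPM against 115, 111 and 106 CPM. The glycolytic gene Gapdh had 85.2, 87.0 and 86.6 CPM against 195, 187 and 186 CPM; it has many near-identical processed pseudogenes, so its count is uncertain. With 6 libraries in 2 groups, such likeness mostly reflects the difference between genotypes.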
